A study of Mus musculus with 8 samples.

Results

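The endoplasmic reticulum (ER) is where secreted and membrane proteins enter the secretory route, fold and are checked. The genes described here encode its main chaperones, the machinery of ER-associated degradation (ERAD), which sends misfolded proteins back to the cytosol for destruction, and the sensors of the unfolded protein response (UPR), which raise the output of the other groups when unfolded proteins build up. They were chosen by name, with earlier results of these data known. A list of 33 symbols was matched to the symbols of a deposited table of 35976 genes, and all 33 were found. Of these, 32 passed the filter on low values and were tested, and Derl3 did not. The libraries came from C2C12 cells, a mouse myoblast line. The 4 control libraries were from cells given a non-targeting shRNA, and the 4 Atad2 libraries from cells given an shRNA against Atad2, a chromatin ATPase with a bromodomain. RNA was collected 48 h after transfection in both groups. The comparison asks how these genes stand in myoblasts when Atad2 is reduced. The labels name no other genotype or agent, and give neither the number of shRNA sequences used nor the culture each library was made from. The p-values therefore measure only the spread between these libraries, which may be technical.

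The UPR has separate arms. IRE1 (encoded by Ern1) splices Xbp1 mRNA, PERK (Eif2ak3) phosphorylates the translation factor eIF2alpha, and ATF6 moves to the Golgi, where proteases release a transcription factor. BiP (Hspa5), the HSP70 of the ER lumen, binds the sensors at rest and is itself a target gene of the response. Muscle cells depend on this system while they make membrane and matrix proteins, and part of it is known to be active when myoblasts differentiate. Gene-level values report mRNA amounts and do not measure Xbp1 splicing, eIF2alpha phosphorylation or cleavage of ATF6.

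Many ER chaperone promoters hold an ER stress element, to which ATF6 binds together with the factor NF-Y. Its letters were searched as CCAAT, any 9 bases, then CCACG, on both strands of RefSeq promoter windows (GRCm38.p6, 250 bases before to 50 after each start). A window was given for 27 of the 33 genes, and 9 of these 27 (33.3%) held the element, against 39 of all 32851 windows (0.119%). The second form, ATTGG, any base, then CCACG, was in 2 of the 27, Herpud1 and Dnajb11, and in 12 of all windows (0.0365%). CCAAT alone, which every match to the first form contains, was in 21 of the 27 (77.8%) against 37.4% of all windows, and the unfolded protein response element TGACGTGG was in none of the 27 and in 222 of all windows (0.676%). The match of Dnajb11, 7 to 17 bases after its start, is not printed. The stretches around the other matches of both forms are shown because the genes that share them did not all move together. They read 5′ to 3′ along each gene's own strand, with the fixed letters of the element in capitals. Where the match lies on the opposite strand the capitals read CGTGG first and ATTGG second.
Hspa5, chr2:34772020-34772048, plus strand: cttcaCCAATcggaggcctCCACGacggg
Hsp90b1, upstream match, chr10:86705633-86705661, minus strand: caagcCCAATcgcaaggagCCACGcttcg
Hsp90b1, match nearer the start, chr10:86705528-86705556, minus strand: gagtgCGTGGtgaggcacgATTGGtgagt
Dnajc3, chr14:118937822-118937850, plus strand: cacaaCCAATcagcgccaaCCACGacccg
Calr, chr8:84847070-84847098, minus strand: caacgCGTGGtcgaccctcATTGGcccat
Canx, chr11:50325795-50325823, minus strand: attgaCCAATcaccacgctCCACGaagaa
Pdia6, chr12:17266486-17266514, plus strand: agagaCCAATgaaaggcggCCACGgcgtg
Creld2, chr15:88819515-88819543, plus strand: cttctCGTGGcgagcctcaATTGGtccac
Syvn1, chr19:6046527-6046555, plus strand: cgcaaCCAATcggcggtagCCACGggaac
Derl3, chr10:75893237-75893265, plus strand: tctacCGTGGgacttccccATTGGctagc
Herpud1, second form, chr8:94386372-94386392, plus strand: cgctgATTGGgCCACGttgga
The 10 matches of the first form lay 26 to 212 bases before the RefSeq start, 6 in the gene's own orientation and 4 in the opposite one. In GENCODE vM21, whose start for Hspa5 lies further upstream, the Hspa5 stretch falls inside the annotated gene. A match is a run of letters and does not show that a factor binds there.

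Levels are log2(normalized count + 1), the scale of the deposited table, and differences are log2 fold changes of Atad2 over control ± SE. They were tested with limma over 14703 genes, and a gene rose or fell where its Benjamini-Hochberg adjusted p was under 0.05. Of the 32 genes tested, 16 rose (50%) and 6 fell (18.8%), and 10 did not pass, which does not show that those were equal in the groups. Over all genes tested, 30.8% rose and 29.6% fell. The libraries of the 2 groups did not overlap for 20 of the 32 genes, and for 53.5% of all genes tested. The median log2 fold change of the 32 genes was 0.089, against -0.0095 for all genes. Changes of called genes were at least 1.5-fold for 1 of the 32, Dnajb9, against 19.5% of all genes tested. The latter share covers genes down to a mean level of 3, while the 32 lay at 9.88 to 15.88. No share at like level was computed for this measure.

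These genes are well expressed, and the share of genes that rose grew with level in this comparison. Among all 1717 genes with a mean level above 13, 57.8% rose and 20.2% fell, and 8 of the 13 ER genes at that level rose and 1 fell. Between 11 and 13, 46.9% of 4452 genes rose and 22.3% fell, and 7 of the 15 ER genes there rose and 4 fell. The counts of genes that rose thus lay near those of all genes of like level. The split of the calls also depended on how the libraries were scaled. Higher genes made up 72.7% of the calls, and 54.2% after quantile normalization (13 higher, 11 lower), 50% after cyclic loess (11 and 11) and 54.2% with limma-voom on reads recovered from the table (13 and 11). Under every one of the 19 alternative fits, 16 of the 22 calls were kept: Hspa5, Hyou1, Dnajb9, Dnajb11, Pdia4, Creld2, Manf, Syvn1, Sec61a1, Atf6 and Ern1 higher, and Sdf2l1, Edem1, Edem2, Os9 and Ppp1r15b lower.

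**Figure D1:**
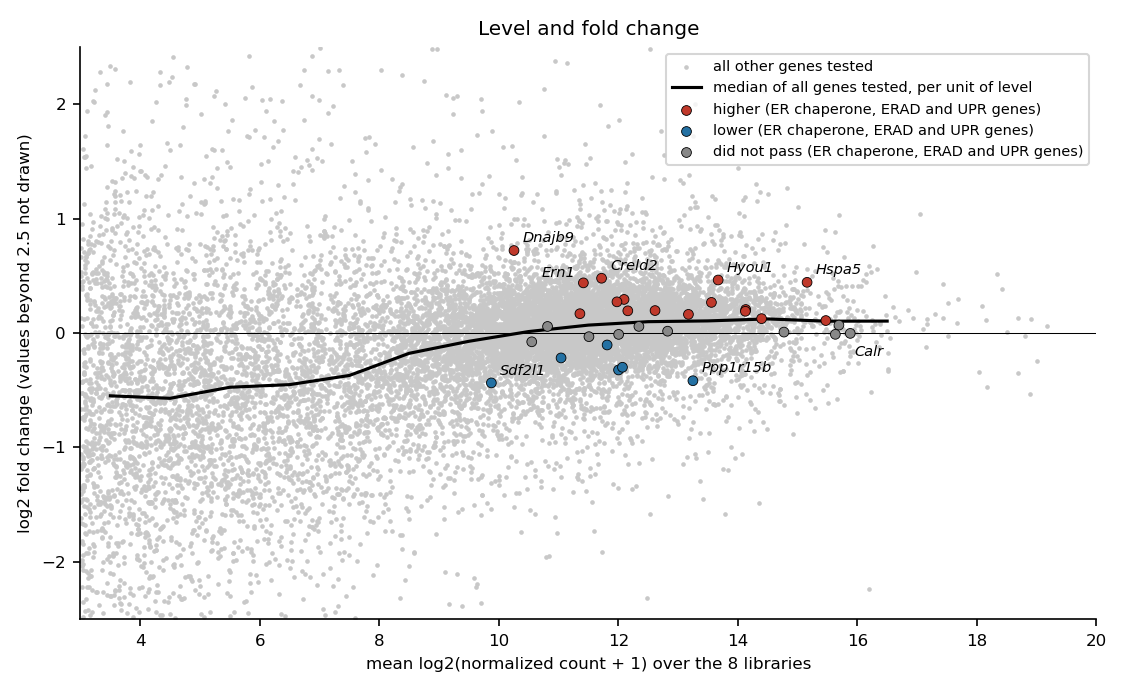
Log2 fold change (Atad2 over control, y axis) against the mean log2(normalized count + 1) of the 8 libraries (x axis) for all 14703 genes tested in grey, with the 32 ER genes in red (higher), blue (lower) or dark grey (did not pass) and the median of all genes per unit of level as a black line. The median line lies below 0 at low levels and slightly above 0 above a level of 11, and Dnajb9 stands highest of the ER genes at 0.72.

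The knockdown was seen in every Atad2 library. Atad2 (chromosome 15, 58094044 to 58135082, GRCm38) lay at 14.61 to 14.74 in control libraries, and 11.77 to 12.05 in Atad2 libraries, a log2 fold change of -2.73 ± 0.05 (limma adjusted p = 4.6e-20). Its exact two-sided permutation p of 0.0286 is the smallest that 4 against 4 libraries can give. Depth was 61.4 to 73.0 Mreads (mega reads) in each control library and 50.3 to 72.3 Mreads in each Atad2 library, recovered from the deposited values. Genes with at least 1 read numbered 18845 to 18939 in each control library and 17544 to 17894 in each Atad2 library, so the groups did not overlap. On the second principal component of all genes (8.29% of the variance) Atad2 replicate 3 stood apart, and without it the ER genes gave the same counts, 16 higher and 6 lower. The myoblast markers Myod1, Myf5, Des, Cdh15, Itga7, Vcam1 and Ncam1 were all expressed, 4 of the 7 rose and 3 fell. The largest changes were those of Myf5 (-1.28 ± 0.10) and Cdh15 (-0.96 ± 0.05), each larger than that of any of the 32 ER genes. The summed level of the 7, of which Des held the largest part, was 996 to 1055 reads per Mread of the library (RPM) in control libraries and 1035 to 1116 in the Atad2 libraries. Summed leukocyte markers were 14.9 to 15.8 RPM and 16.7 to 20.3 RPM, most of it Cd68, which rose by 1.17 ± 0.11, and Cd14. Csf1r had 10 to 43 control reads and 34 to 53 Atad2 reads a library and did not pass. Lyz2 had at most 9 reads in a library, Ptprc and Itgam at most 4, and Adgre1 had 0 in all 8. Endothelial markers summed to 0.726 to 1.01 RPM and 0.437 to 0.775 RPM. Kdr, Tek and Vwf did not pass, Pecam1 had at most 14 reads in a library, Cdh5 at most 1, and Emcn had 0 reads. Epithelial markers summed to 0.757 to 1.36 RPM and 0.0438 to 0.221 RPM, most of it Cdh1. Cdh1 changed by -3.25 ± 0.47 (limma adjusted p = 4.6e-06), with 46 to 86 control reads and 2 to 15 Atad2 reads a library. Epcam had 0 reads. Plasma cells are rich in ER, and of their markers Sdc1, which myoblasts also express, held nearly all of a sum of 131 to 142 RPM in control libraries and 219 to 230 RPM in the Atad2 libraries, and Irf4 had 0 reads. The part of these markers, and of the number of genes with reads, in the results was not tested. In RNA from whole cultures, fewer cells of a kind and less RNA per cell cannot be told apart.

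The HSP70 and HSP90 chaperones of the ER lumen rose, 3 of 3, of which Hsp90b1 did so only under some scalings. All 3 lay above a level of 13, where 57.8% of all genes tested rose. Hspa5 (chromosome 2, 34771970 to 34777547), which encodes BiP, stood at 15.01, 15.03, 14.84 and 14.88 in control replicates 1 to 4 and at 15.41, 15.45, 15.39 and 15.27 in the Atad2 replicates. Every Atad2 library lay above every control library. The log2 fold change was 0.44 ± 0.04, or 1.36-fold (95% interval 0.35 to 0.53 on the log2 scale, limma adjusted p = 1.5e-08). Hyou1 (chromosome 9, 44379490 to 44392369), the nucleotide exchange factor that recharges BiP, had control levels of 13.52, 13.46, 13.41 and 13.37 and Atad2 levels of 13.97, 13.99, 13.86 and 13.79. Its groups were as clearly separated, with a log2 fold change of 0.46 ± 0.04 (limma adjusted p = 5.7e-09). Hsp90b1 (chromosome 10, 86690209 to 86705509), the ER paralog of HSP90, differed far less, with 15.41, 15.50, 15.41 and 15.35 against 15.56, 15.56, 15.51 and 15.47. Control replicate 2 lay above Atad2 replicate 4, so the groups overlapped. Its log2 fold change of 0.11 ± 0.03 passed the test (limma adjusted p = 0.0091), but after quantile and cyclic loess normalization it was -0.0044 and -0.0091 and did not pass, nor did it with voom or with eBayes run without a trend.

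**Figure D2:**
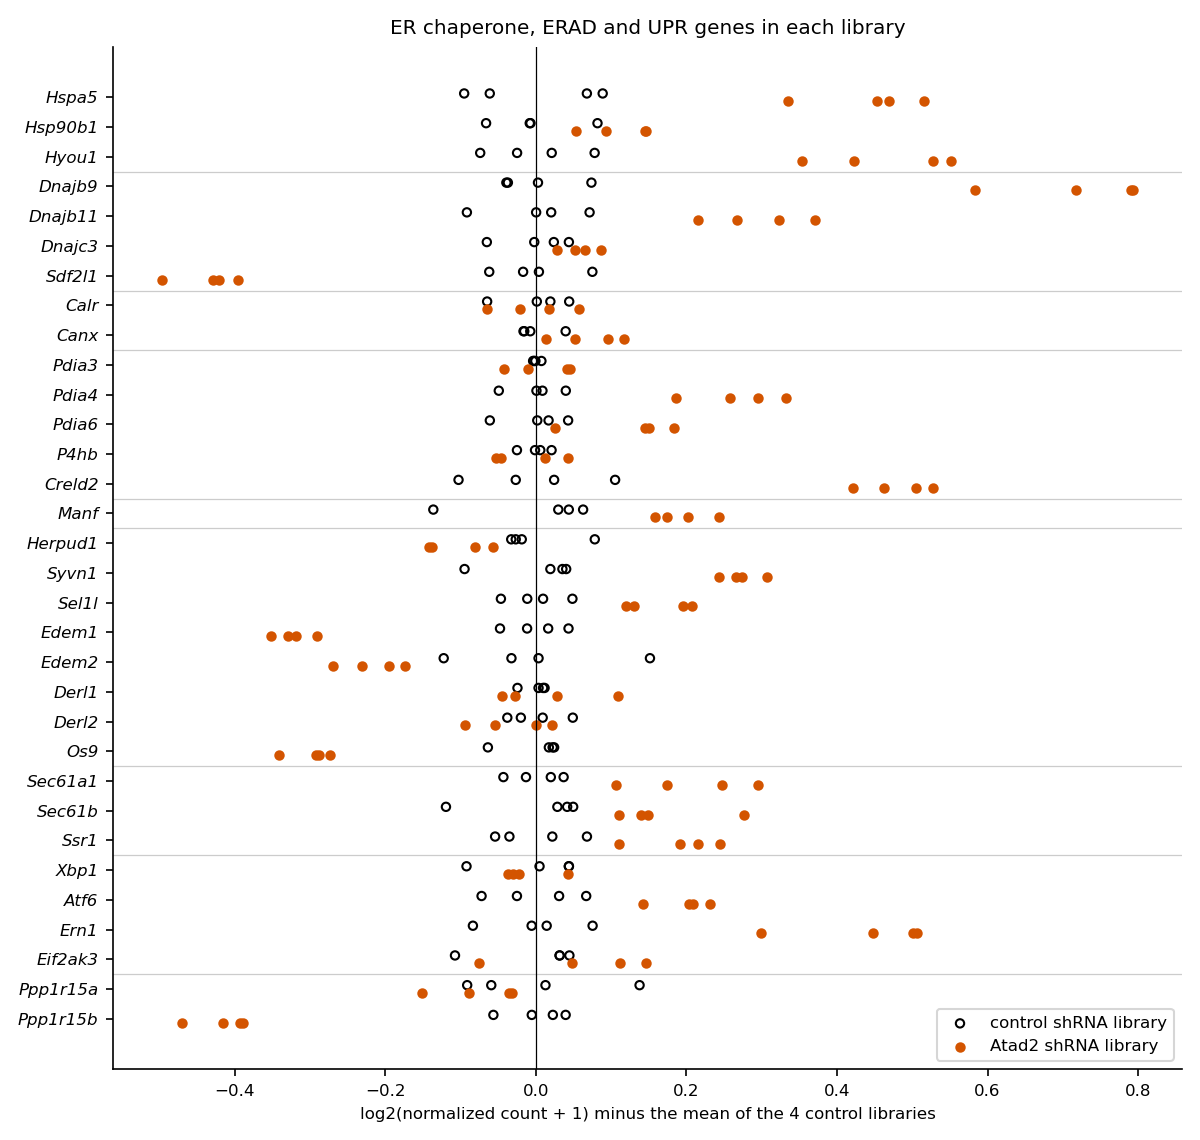
Level of each of the 32 ER genes in each library as log2(normalized count + 1) minus the mean of the 4 control libraries (x axis), with open black circles for control and filled orange circles for Atad2 libraries; grey lines separate the roles. Dnajb9 lies farthest to the right, and Sdf2l1, Ppp1r15b, Edem1 and Os9 farthest to the left, with no overlap between the groups.

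J-domain proteins deliver clients to BiP, and 2 of these 3 rose. Of all genes tested 27.5% rose between levels 9 and 11, where Dnajb9 lay. Between 11 and 13, where Dnajb11 and Dnajc3 lay, 46.9% rose. Dnajb9 (ERdj4, chromosome 12, 44205559 to 44210326), a cochaperone that also links BiP to IRE1, had the largest change of the 32 genes. Its control levels were 9.90, 9.86, 9.97 and 9.86, and its Atad2 levels 10.69, 10.48, 10.69 and 10.61. The lowest Atad2 library, replicate 2, stood above the highest control library, and the log2 fold change was 0.72 ± 0.06, or 1.65-fold (95% interval 0.59 to 0.85, limma adjusted p = 3.0e-09, with 921 to 1091 control reads and 1282 to 1801 Atad2 reads a library). Dnajb11 (ERdj3, chromosome 16, 22857845 to 22879634), which binds unfolded clients directly, lay at 11.95, 12.02, 11.86 and 11.97 in control libraries and 12.32, 12.27, 12.22 and 12.16 in the Atad2 libraries. The groups did not overlap, and the log2 fold change was 0.29 ± 0.04 (limma adjusted p = 5.3e-06). Its window holds the second form of the element. Sdf2l1 (chromosome 16, 17130138 to 17132383), the partner that keeps ERdj3 in the ER and prevents its aggregation, went the other way. It stood at 10.17, 10.03, 10.10 and 10.08 in control libraries and fell to 9.67, 9.66, 9.70 and 9.60. All Atad2 libraries lay below all controls, at a log2 fold change of -0.44 ± 0.06 (95% interval -0.57 to -0.30, limma adjusted p = 6.1e-06). Dnajc3, which encodes a cochaperone of BiP also known as an inhibitor of PERK, had means of 12.32 ± 0.05 and 12.37 ± 0.02 (SD, n = 4 control and n = 4 Atad2). Its interval of -0.016 to 0.13 held 0 (limma adjusted p = 0.17), and under quantile, cyclic loess and voom scaling its value was below 0 without passing.

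The lectin chaperones, which hold glycoproteins in the folding cycle, did not pass the test. Calr (calreticulin) lay between 15.82 and 15.93 in control libraries and between 15.82 and 15.94 in the Atad2 libraries, with a log2 fold change of -0.0030 ± 0.034 and a 95% interval of -0.073 to 0.067, and it was called lower under quantile, cyclic loess and voom scaling. Canx (calnexin) had 15.64, 15.70, 15.64 and 15.65 against 15.78, 15.75, 15.71 and 15.67. Only control replicate 2 reached into the range of the Atad2 libraries. The log2 fold change of Canx was 0.070 ± 0.031 (95% interval 0.0047 to 0.13, limma adjusted p = 0.059), and Canx passed in 5 of the 19 alternative fits, among them those without control replicate 2 and without Atad2 replicate 4. Under quantile, cyclic loess and voom scaling its value was below 0 without passing.

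The disulfide isomerases form and reshuffle disulfide bonds, and 3 of 5 rose, while 2 rose and 2 fell under quantile, cyclic loess or voom scaling. All but Creld2 lay above a level of 13, where 57.8% of all genes tested rose. Between 11 and 13, where Creld2 lay, 46.9% rose. Creld2 (chromosome 15, 88819646 to 88826683), an ER stress protein with disulfide isomerase activity, moved from 11.59, 11.51, 11.38 and 11.45 in the controls to 11.94, 11.99, 12.01 and 11.90. The groups did not overlap, and the log2 fold change was 0.48 ± 0.05, or 1.39-fold (limma adjusted p = 1.3e-08). Pdia4 (ERp72, chromosome 6, 47796141 to 47813430) rose from 13.46, 13.43, 13.38 and 13.43 to 13.72, 13.76, 13.68 and 13.61, again without overlap, at 0.27 ± 0.03 (limma adjusted p = 1.0e-06). Pdia6, an isomerase that acts on IRE1 and PERK, lay at 14.35, 14.38, 14.27 and 14.34 and at 14.49, 14.52, 14.36 and 14.48. Atad2 replicate 3 fell within the control range, and the log2 fold change of 0.13 ± 0.04 (limma adjusted p = 0.0042) did not pass after quantile, cyclic loess or voom scaling. The most abundant of the family showed values close to 0: P4hb, the classical isomerase, had -0.011 ± 0.031 (95% interval -0.075 to 0.053) and Pdia3 (ERp57), which works with the lectins, 0.0083 ± 0.029. Under those same scalings both were called lower, Pdia3 at -0.113, -0.109 and -0.0684. Manf (chromosome 9, 106838312 to 106891979), a small ER protein that can be secreted and binds BiP, rose from 12.12, 12.09, 11.93 and 12.11 to 12.27, 12.30, 12.22 and 12.24, by 0.19 ± 0.04 (limma adjusted p = 0.00059), with all Atad2 libraries above all controls. Manf shares exon bases with Rbm15b on the same strand, so its reads are less certain.

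ERAD genes moved in both directions: of 8 tested, 2 rose, 4 fell and 2 did not pass, and under quantile or cyclic loess normalization 1 rose and 5 fell. All but Sel1l of the 8 lay between levels 11 and 13, where 46.9% of all genes tested rose and 22.3% fell. Sel1l lay above 13, where 57.8% rose and 20.2% fell. The core of the HRD1 ubiquitin ligase complex rose. Syvn1 (chromosome 19, 6046576 to 6053712), which encodes the ligase HRD1, stood at 11.88, 11.88, 11.75 and 11.86 in control libraries and 12.15, 12.12, 12.09 and 12.11 in the Atad2 libraries. No library of one group entered the range of the other, and the log2 fold change was 0.27 ± 0.04 (limma adjusted p = 4.8e-06). Sel1l (chromosome 12, 91806043 to 91849157), its adaptor, had 13.10, 13.05, 13.14 and 13.08 against 13.22, 13.29, 13.30 and 13.21, a smaller rise of 0.16 ± 0.03 without overlap (limma adjusted p = 0.00027) that did not pass after quantile or cyclic loess normalization.

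Of the genes that mark or hand over glycoproteins to that complex, Edem1, Edem2 and Os9 fell, without overlap and under each of the 19 alternative fits. Edem1 (chromosome 6, 108828641 to 108859356), a mannosidase-like protein that marks misfolded glycoproteins for ERAD, stood at 12.12, 12.21, 12.15 and 12.18 in control libraries, and 11.88, 11.85, 11.84 and 11.81 in Atad2 libraries. The groups were separate, with a log2 fold change of -0.32 ± 0.04 (95% interval -0.40 to -0.25, limma adjusted p = 1.9e-07). Edem2 (chromosome 2, 155701677 to 155729475), which starts mannose trimming, fell from 11.12, 11.03, 11.15 and 11.30 to 10.92, 10.96, 10.88 and 10.98, by 0.22 on the log2 scale (SE 0.05, limma adjusted p = 0.0017). Its control replicate 4 was higher than the other controls, and the groups did not overlap. Os9 (chromosome 10, 127095650 to 127121131), the lectin that passes trimmed glycoproteins to SEL1L, went from 12.24, 12.16, 12.24 and 12.24 to 11.93, 11.88, 11.93 and 11.95. That was -0.30 ± 0.04, with every Atad2 library below every control (limma adjusted p = 5.8e-07). Their closest relatives, looked up after these values were seen, went the other way: Edem3 rose by 0.14 ± 0.04 (limma adjusted p = 0.0026) and Erlec1, the paralog of Os9, by 0.21 ± 0.05 (limma adjusted p = 0.0023). Quantile, cyclic loess and voom scaling ended the call of Edem3, and voom that of Erlec1, with both values still above 0. Herpud1, a membrane protein that organizes the HRD1 complex and whose promoter, like that of Dnajb11, holds the second form of the element, showed a small fall, while Dnajb11 rose. It lay at 11.94, 11.85, 11.83 and 11.84 in control libraries and 11.81, 11.73, 11.79 and 11.72 in the Atad2 libraries, and the groups were only just separate. Its log2 fold change of -0.10 ± 0.04 (limma adjusted p = 0.030) no longer passed when control replicate 1 or Atad2 replicate 2 or 4 was left out, where the adjusted p was at most 0.126.

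The derlins, membrane proteins of the retrotranslocation step, did not pass. Derl1 had means of 12.82 ± 0.02 (control) and 12.83 ± 0.07 (Atad2), and Derl2 of 11.53 ± 0.04 and 11.49 ± 0.05 (SD, n = 4 each). Their log2 fold changes were 0.016 ± 0.036 (95% interval -0.059 to 0.091) and -0.032 ± 0.042 (-0.12 to 0.056), and Derl2 was called lower with voom. After quantile and cyclic loess normalization Derl1 was called lower, at -0.0799 and -0.0820. Derl3, the derlin typical of secretory cells, had 1 read in control replicate 3 and 0 in the other 7 libraries, where 3 reads correspond to 0.0411 to 0.0596 RPM, a floor that covers counting error only. Derl3 was therefore left out by the filter on low values, and with no filter its limma adjusted p was 0.64. Its window holds the ER stress element.

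The translocon genes, whose products form the channel through which new proteins enter the ER, rose, 3 of 3, by similar amounts, and 1 of 3 rose after cyclic loess normalization. Above a level of 13, where Sec61a1 and Ssr1 lay, 57.8% of all genes tested rose, with a median log2 fold change of 0.11. Between 11 and 13, where Sec61b lay, 46.9% rose, with a median of 0.083. Sec61a1 (chromosome 6, 88503579 to 88518905), the pore subunit, lay at 14.07, 13.99, 14.02 and 14.05 in control libraries and 14.32, 14.28, 14.20 and 14.14 in the Atad2 libraries. Its groups were separate, at 0.21 ± 0.04 (limma adjusted p = 6.2e-05). Ssr1, a subunit of the translocon-associated protein complex, moved from 14.05, 14.10, 14.00 and 13.98 to 14.22, 14.28, 14.25 and 14.14, or 0.19 ± 0.03 (limma adjusted p = 8.5e-05). Sec61b, a small subunit of the channel, had 11.30, 11.32, 11.15 and 11.31 against 11.55, 11.41, 11.42 and 11.38, or 0.17 ± 0.05 (limma adjusted p = 0.0058). Neither Ssr1 nor Sec61b showed overlap between the groups. Ssr1 did not pass after cyclic loess normalization, nor Sec61b after cyclic loess or with voom.

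**Figure D3:**
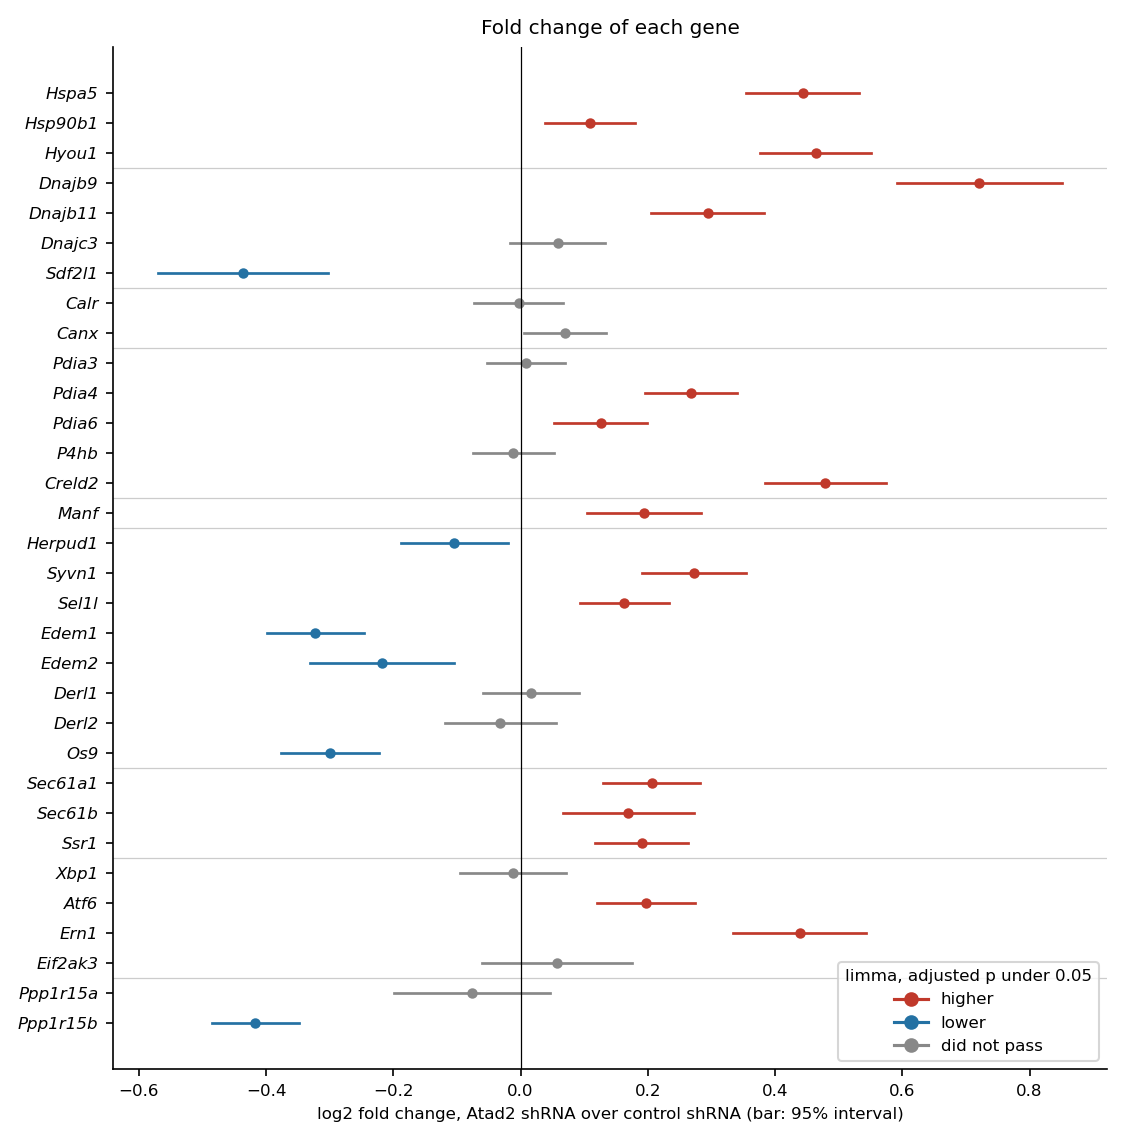
Log2 fold change of Atad2 over control shRNA for each of the 32 ER genes tested (x axis), with bars for the 95% interval and colours for the limma call. The HSP70 and HSP90 chaperones and the translocon genes lie to the right of 0, the ERAD genes lie on both sides, and Dnajb9 is the only gene past 0.5.

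The sensor genes differed from each other. Ern1 (chromosome 11, 106394650 to 106487852), which encodes IRE1alpha, rose from 11.27, 11.19, 11.11 and 11.21 in the controls to 11.70, 11.50, 11.70 and 11.64. The groups were clear of each other, and the log2 fold change was 0.44 ± 0.05, or 1.36-fold (95% interval 0.33 to 0.54, limma adjusted p = 2.1e-07). Atf6 (chromosome 1, 170704674 to 170867771) rose from 12.55, 12.58, 12.49 and 12.45 to 12.73, 12.66, 12.72 and 12.75, without overlap, by 0.20 ± 0.04 (limma adjusted p = 0.00011). Eif2ak3, the PERK gene, was at 10.83, 10.82, 10.82 and 10.68 and at 10.90, 10.71, 10.93 and 10.84. Its groups overlapped, and the difference of 0.058 ± 0.056 (95% interval -0.060 to 0.18) did not pass. Xbp1, the substrate of IRE1, stood at 12.06, 12.06, 11.92 and 12.02 in control libraries and 12.05, 11.98, 11.97 and 11.99 in the Atad2 libraries, a difference of -0.012 ± 0.040 within an interval of -0.095 to 0.071 (limma adjusted p = 0.82). These are totals over spliced and unspliced Xbp1 mRNA. After quantile and cyclic loess normalization Xbp1 was called lower.

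PERK is opposed by phosphatases that remove the phosphate from eIF2alpha, and the subunits that guide them differed. Ppp1r15b (CReP, chromosome 1, 133131143 to 133139783), which acts in unstressed cells, lay at 13.50, 13.48, 13.40 and 13.45 in control libraries and 13.06, 13.07, 13.04 and 12.99 in the Atad2 libraries. All Atad2 libraries were below all controls, at a log2 fold change of -0.42 ± 0.03, or 1.33-fold lower (95% interval -0.49 to -0.35, limma adjusted p = 7.3e-10), the smallest adjusted p of the 32 genes. Ppp1r15a (GADD34), the subunit made under stress, had overlapping values of 10.50, 10.53, 10.60 and 10.73 and of 10.50, 10.56, 10.44 and 10.55. Its difference of -0.077 ± 0.059 (95% interval -0.20 to 0.046) did not pass, though it was called lower with voom.

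The signalling genes next to these sensors fell more often than they rose. Of 24 other genes of the UPR and of the integrated stress response, which the eIF2alpha kinases feed, 4 rose (16.7%), 13 fell (54.2%) and 7 did not pass. Their median was -0.17, against -0.0095 for all genes tested, of which 30.8% rose and 29.6% fell. This list, like the others, was chosen with earlier results of these data known. Ddit3 (CHOP), a transcription factor of prolonged stress, stood at 11.47, 11.49, 11.54 and 11.59 in control libraries and 10.39, 10.42, 10.41 and 10.34 in the Atad2 libraries. With groups far apart, its log2 fold change was -1.14 ± 0.05 (limma adjusted p = 2.3e-14). Chac1, a glutathione-degrading enzyme downstream of ATF4, went from 10.33, 10.37, 10.14 and 10.31 to 9.24, 8.84, 9.08 and 8.89, or -1.28 ± 0.09 (limma adjusted p = 7.4e-11). Trib3, a pseudokinase induced by ATF4 and CHOP, went from 9.65, 9.81, 9.65 and 9.66 to 8.52, 8.68, 8.68 and 8.17, or -1.18 ± 0.10 (limma adjusted p = 5.0e-09). These falls were larger than any fall among the 32 ER genes, and no library of one group entered the other group's range. Atf4 itself, the transcription factor whose translation rises when eIF2alpha is phosphorylated, showed a small fall of its mRNA. It lay at 14.22 to 14.23 in control libraries, and 14.22, 14.09, 14.10 and 14.02 in Atad2 libraries, with Atad2 replicate 1 inside the control range, at -0.12 ± 0.04 (limma adjusted p = 0.0076). That call did not pass with eBayes run without a trend (adjusted p = 0.0549). Atf6b, the paralog of Atf6, fell by 0.51 (SE 0.04, limma adjusted p = 1.3e-09), opposite in direction to Atf6. Of the Golgi proteases that cut ATF6, Mbtps2 rose by 0.33 ± 0.04, and Mbtps1 by 0.094 ± 0.034 (limma adjusted p = 0.023), a call lost in 8 of the 19 alternative fits. Eif2s1, which encodes eIF2alpha, rose by 0.15 ± 0.04, a call lost under quantile, cyclic loess and voom scaling.

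**Figure D4:**
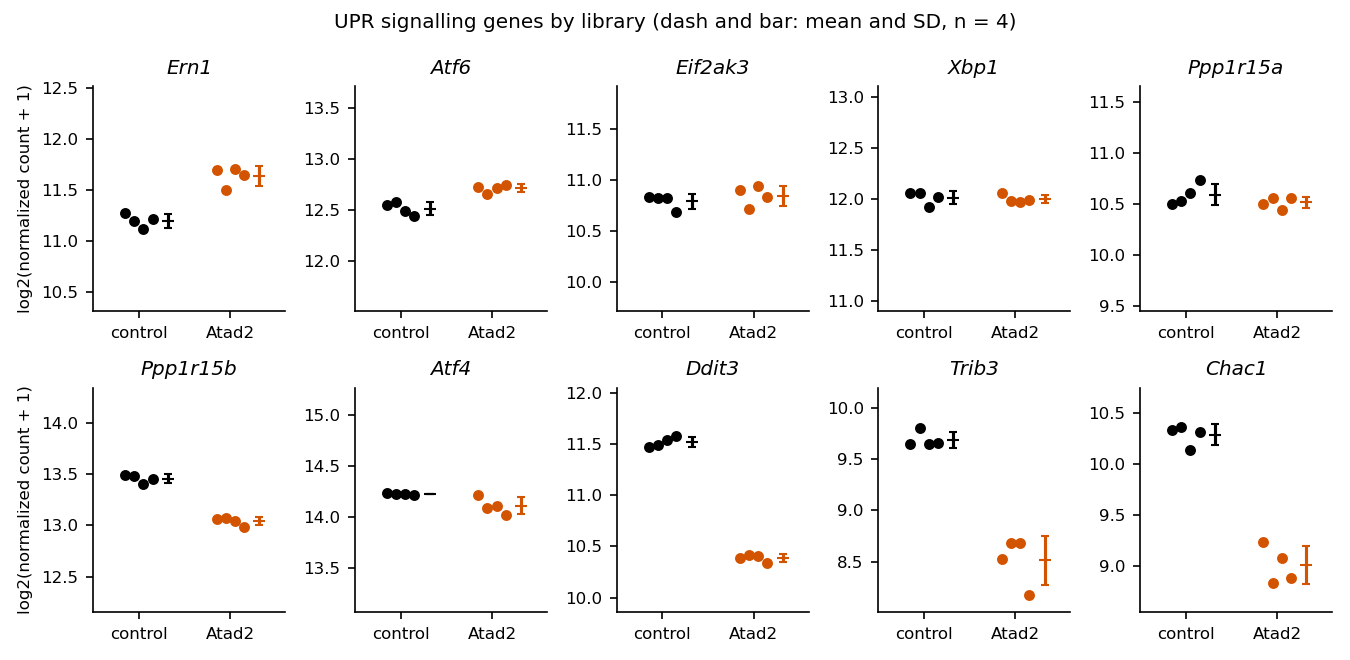
Level of 10 UPR signalling genes in each library as log2(normalized count + 1) (y axis, each panel spanning the same number of log2 units), control in black and Atad2 in orange, with the mean and SD of the 4 libraries beside the points. Ern1 and Atf6 lie higher in the Atad2 libraries, Ppp1r15b, Ddit3, Trib3 and Chac1 lower, and Eif2ak3, Xbp1 and Ppp1r15a overlap between the groups.

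Other genes of the ER folding and degradation route were taken from lists chosen by function, with earlier results of these data known. Their shares stand beside those of all genes tested, of which 30.8% rose and 29.6% fell. Among all genes above a level of 13, 57.8% rose, and between 11 and 13, 46.9%. Of 26 other ERAD genes, 15 rose (57.7%) and 3 fell (11.5%, median 0.12), and 11 rose and 4 fell after quantile normalization. Vcp, the ATPase that extracts ERAD substrates, rose by 0.32 ± 0.03, its ER-bound partner gene Ubxn4 by 0.40 ± 0.03, the gene of the selenoprotein K, Selk, by 0.43 ± 0.05 and the tail-anchor cochaperone gene Sgta by 0.28 ± 0.03. The deubiquitinase gene Yod1 and the VCP cofactor gene Ufd1l changed by -0.27 ± 0.07 and -0.16 ± 0.05. Of 20 other genes of the translocon, signal recognition and signal peptidase, 12 rose (60%) and 4 fell (20%, median 0.14). After quantile normalization 8 of them rose and 7 fell. Ssr2, Ssr4, Srpr and Sec11c stood at 0.31 ± 0.04, 0.30 ± 0.05, 0.23 ± 0.03 and 0.51 ± 0.08. Tram2, which helps collagen chains enter the ER, changed by -0.61 ± 0.07, and Sec61g, the remaining small channel subunit, by -0.12 ± 0.04, a call lost in the fits that omit control replicate 1, control replicate 4 or Atad2 replicate 4. Of 20 genes of N-glycosylation and the calnexin cycle, 11 rose (55%) and 3 fell (15%, median 0.11). After quantile normalization, however, 5 rose and 7 fell. The oligosaccharyltransferase genes Rpn1, Stt3a and Ostc rose by 0.25 ± 0.03, 0.22 ± 0.03 and 0.34 ± 0.05 and the glucosidase II subunit gene Prkcsh by 0.20 ± 0.04, while Ost4 and Magt1, also of the oligosaccharyltransferase, changed by -0.50 ± 0.05 and -0.16 ± 0.04.

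Among 20 tested genes of other disulfide isomerases and ER oxidases, 9 rose (45%) and 5 fell (25%, median 0.051). After quantile normalization 6 of them rose and 7 fell. Gpx8, an ER membrane peroxidase, rose by 0.94 ± 0.04 and the isomerase genes Pdia5, Erp29 and Txndc5 by 0.42 ± 0.05, 0.33 ± 0.05 and 0.25 ± 0.03, while the selenoprotein gene Selm and the oxidase gene Qsox1 changed by -1.19 ± 0.08 and -0.45 ± 0.03. Of 20 tested genes of other chaperones and prolyl isomerases, 8 rose and 5 fell (median 0.078), and 6 rose and 8 fell after quantile normalization. The prolyl isomerase genes Fkbp11, Fkbp10 and Ppib rose by 0.76 ± 0.07, 0.30 ± 0.03 and 0.20 ± 0.04 and Hspa13, an HSP70 of the ER, by 0.45 ± 0.04. Cdnf, the paralog of Manf, changed by -1.55 ± 0.21 from a low level of 7.06 ± 0.17 in the controls (SD, n = 4), opposite in direction to Manf, and Tor3a, an ATPase of the torsin family, by -0.43 ± 0.05. Further along the route, of 23 genes of ER to Golgi transport 3 rose and 6 fell (median -0.0053). The share that fell, 26.1%, lay near the 29.6% of all genes. The share that rose, 3 of 23, lay well below the 30.8% of all genes and the 46.9% of genes between levels 11 and 13. The cargo receptor genes Mcfd2 and Lman1 stood at -0.71 ± 0.05 and -0.15 ± 0.04. Tmed9 stood at -0.44 ± 0.04, the coat organizer Sec16a at -0.18 ± 0.03 and Sec13 at 0.25 ± 0.04. After quantile normalization 1 of the 23 rose and 15 fell. Kdelr1, the receptor that returns ER chaperones, was at 0.14 ± 0.03, which did not pass after quantile, cyclic loess or voom scaling. Of 14 genes of the ER calcium store 3 rose (21.4%) and 6 fell (42.9%, median -0.040), with the calcium-binding proteins Sdf4, Nucb2 and Calu at -0.33 ± 0.03, -0.50 ± 0.08 and -0.13 ± 0.03, the calcium channels Itpr2 and Itpr3 at -0.32 ± 0.05 and 0.40 ± 0.03, and Rcn1 at 0.27 ± 0.03. Over these 8 lists 65 of 167 genes tested rose (38.9%) and 45 fell (26.9%). Their median of 0.022 and mean of -0.023 differed in sign.

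**Figure D5:**
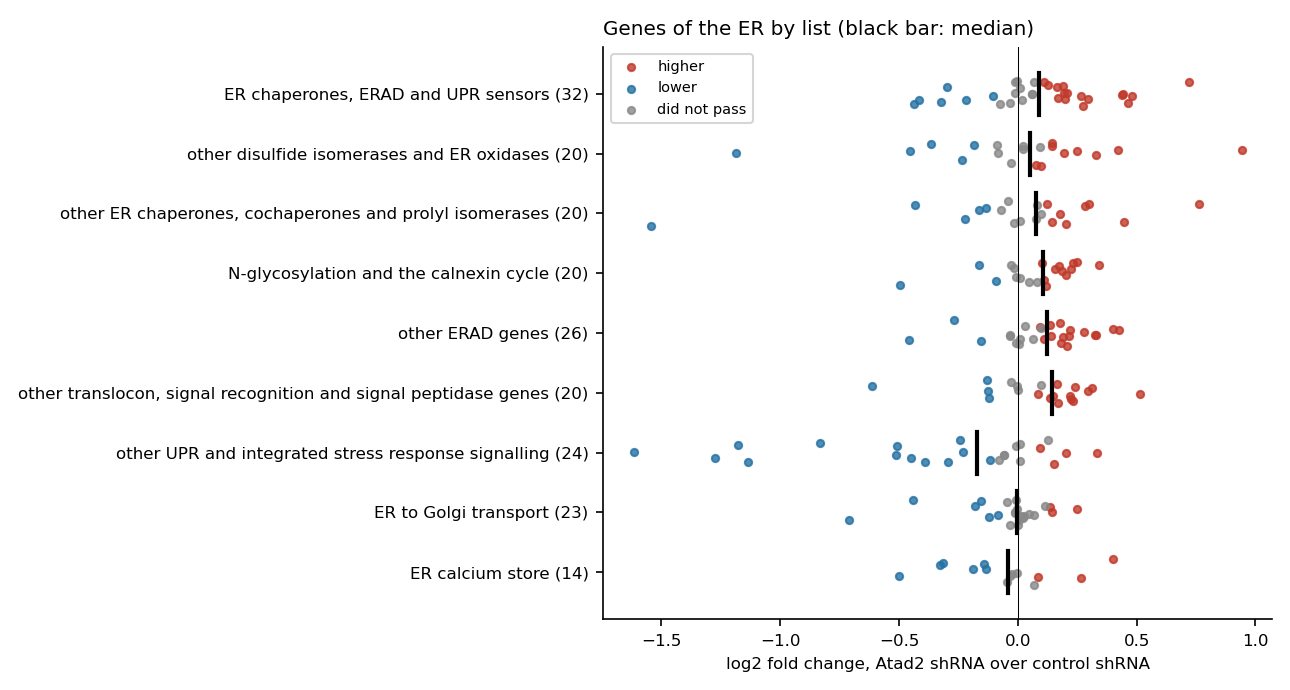
Log2 fold change (x axis) of every tested gene of the 33-gene group (top) and of the 8 lists of other ER genes, with the number tested in brackets, colours for the limma call and a black bar for the median of each list. The median is lowest for UPR and integrated stress response signalling, at -0.17, and highest for translocon, signal recognition and signal peptidase genes, at 0.14.

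The genes with the ER stress element in their window did not form a uniform group. Of the 9, Hspa5, Hsp90b1, Pdia6, Creld2 and Syvn1 rose, Dnajc3, Calr and Canx did not pass, Derl3 was not tested and 0 fell, with a median log2 fold change of 0.12 over the 8 tested. Under quantile, cyclic loess or voom scaling 3 of them rose and 1 fell. Among all genes 57.8% rose above a level of 13, where Hspa5, Hsp90b1, Calr, Canx and Pdia6 lay. Between 11 and 13, where Dnajc3, Creld2 and Syvn1 lay, 46.9% rose. Of the 18 genes whose window held no match to the first form of the element, 7 rose, 5 fell and 6 did not pass (median -0.0015). Under those scalings 4 to 6 of the 18 rose and 8 to 9 fell. Dnajb11, which rose, and Herpud1, which fell, are among the 18 and hold the second form. The search allowed no mismatch in the fixed letters and read only the window. These 18 spanned levels of 9.88 to 15.63. Of all genes 27.5% rose and 31.5% fell between levels 9 and 11, where Dnajb9, Sdf2l1, Eif2ak3 and Ppp1r15a lay. Above 13, where Pdia3, Pdia4, P4hb, Sel1l and Ssr1 lay, 57.8% rose and 20.2% fell. The rest of the 18 lay between 11 and 13, where 46.9% rose and 22.3% fell. Dnajb9, with the largest rise, was among those 18. For the 6 genes without a window (Hyou1, Manf, Derl1, Sec61a1, Atf6 and Ppp1r15b) no sequence was read. Of the genes with the element, Creld2 (0.48) and Hspa5 (0.44) changed most, and their matches lie in the opposite orientation and in the gene's own. Calr, with a match 144 to 162 bases before its start, stood at -0.0030.

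Levels differ widely between these genes. Per kilobase of exon (all GENCODE vM21 exons of a gene merged, which overstates the length of genes with many isoforms), Calr was highest in the controls at 21002 ± 672 normalized counts per kb, followed by P4hb at 17827 ± 236 (SD, n = 4 each). Canx and Hsp90b1 came next at 11015 ± 205 and 10875 ± 464 normalized counts per kb, closer to each other than their spread. Hspa5 was the sixth at 7435 ± 472 normalized counts per kb, below Pdia3 at 8893 ± 31, and reached 10104 ± 531 in the Atad2 libraries, above the 8947 ± 263 of Pdia3 there. Dnajb9 was among the lowest, with 373 ± 14 normalized counts per kb in control libraries and 616 ± 41 in the Atad2 libraries. The sensor genes Ern1 and Eif2ak3 were lowest of the genes tested, at 287 ± 13 and 293 ± 14 normalized counts per kb in the controls, within their spread, and at 390 ± 25 and 306 ± 20 in the Atad2 libraries.

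The Atad2 libraries differed in level across these genes. The signed median distance of the 32 genes from their control means was 0.12 in Atad2 replicates 1 and 2, 0.079 in replicate 3 and 0.051 in replicate 4. Over the 16 genes that rose it was 0.29, 0.26, 0.23 and 0.20 in replicates 1 to 4, and over the 6 that fell -0.29, -0.33, -0.31 and -0.31. Atad2 replicate 4 was the lowest library of its group for 19 of the 32 genes, among them 10 of those that rose and 4 of those that fell, and replicate 1 for 0. Among the controls, replicate 3 was lowest for 15 genes and replicate 1 highest for 13. Leaving out each library in turn gave 16 to 17 genes that rose and 5 to 6 that fell. In GENCODE vM21, 12 of the 33 genes share exon bases with another gene, 3 of them on the same strand (Hsp90b1, Pdia4 and Manf), and reads of overlapping genes could be shared, since the counting's strand setting is not given in the sources used here.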

How the data were processed

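Total RNA of 8 C2C12 libraries was sequenced. As the authors deposited them, the values are log2(x + 1) of normalized counts per gene symbol, a form read from the values: converted back, low values lay on whole reads within 0.1 for 100% of those checked. HTSeq 0.13.5, SAMtools 1.1, bcl2fastq 2.20 and DESeq2, with the build mm10, are named per the submitters' processing notes. Their order, the aligner and the annotation are not stated there. Genes with a mean above 3 were compared 2-sided by limma 3.58.1 under R 4.3.3, using lmFit and a trended eBayes with no covariates, with an adjusted p under 0.05 over all genes tested. The procedure was tested on simulated data with the same spread setting for all genes. It recovered 52%, 96%, 100% and 100% of log2 changes of 0.25, 0.5, 1 and 2. There 181 of 14686 genes were called, far fewer than in these data. The 33 genes and all lists were chosen with earlier results of these data known. Of 235 list symbols 234 were found, 9 under an older symbol. All 33 genes are named, the signalling genes next to the sensors, and of each other list up to 4 changed genes in the direction with more calls and 2 in the other, by adjusted p. Promoter sequences are from RefSeq (GRCm38.p6), and gene positions from GENCODE vM21 (GRCm38, the assembly that mm10 names). Results were recomputed with other scalings (quantile, cyclic loess, median centring, voom on recovered reads), other filters (none, or a mean above 5), an offset of 8, other priors (robust, or no trend), library weights, a replicate block, stricter calls (adjusted p under 0.01, or at least 1.5-fold), and without each library in turn. Tables used SciPy 1.17.1, pandas 2.3.3, NumPy 2.4.6 and Python 3.11.15, and matplotlib 3.10.9 drew the plots.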

Additional observations from a re-analysis of the deposited data

Results flagged for a closer look

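In 7 cases a single control library lay far from the other 3 of its group on the log2 level scale, past the 95% limit of Dixon's test for 4 values. Chance alone would mark about 1 in 20 of the 66 groups tested (the 32 ER genes past the filter and Atad2, each in 2 groups). Control replicate 3 was low for Manf (11.93, the others 12.09 to 12.12), for the ERAD ligase gene Syvn1 (11.75, the others 11.86 to 11.88) and for the translocon gene Sec61b (11.15, the others 11.3 to 11.32). Control replicate 2 was high for Canx (15.7, the others 15.64 to 15.65) and low for the ERAD lectin gene Os9 (12.16, the others 12.24). Control replicate 1 was high for Herpud1 (11.94, the others 11.83 to 11.85). Control replicate 4 was low for the PERK gene Eif2ak3 (10.68, the others 10.82 to 10.83). Without the library named, Herpud1 and Canx changed their call, as given above, and Manf, Syvn1, Os9, Sec61b and Eif2ak3 kept theirs.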

How the results depend on the processing

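Of the 32 ER genes tested, 16 rose and 6 fell, and 16 of these 22 calls were kept under all 19 refits, while 8 genes that had not passed gained a call in at least 1. Under quantile normalization, cyclic loess and limma-voom 11 genes fell, with medians of 0.0036, 0.00029 and 0.013 against 0.089. The medians of all genes were 0.0098, 0.0022 and -0.087 in these fits, against -0.0095. The median of the 32 genes thus stayed above that of all genes with voom, and lay slightly below it with quantile and loess. Of the 167 other ER genes 42, 42 and 38 rose and 73, 74 and 72 fell, against 65 and 45. Voom moved the median of all genes by -0.078. The sign turned, with a call in at least 1 of the fits compared, for Hsp90b1 (-0.0044 and -0.0091 with quantile and loess), Pdia3 (-0.113, -0.109 and -0.0684 with voom last) and Derl1 (-0.0799 and -0.0820 with quantile and loess); the cause was not tested. It also turned without a call in either fit for Dnajc3 (-0.038, -0.032 and -0.019) and Canx (-0.040, -0.049 and -0.0070) with quantile, loess and voom, for Eif2ak3 (-0.023) and Derl1 (-0.059) with voom, and for Calr, P4hb, Pdia3, Xbp1 and Derl1 in fits that left out or down-weighted a library. With a minimum of 1.5-fold, 1 of the 32 genes rose and 0 fell, and 2 and 9 of the other ER genes. Without single libraries, 16 to 17 of the 32 rose and 5 to 6 fell, with a median of 0.077 to 0.11, 54 to 67 of the other ER genes rose and 40 to 44 fell, and Atad2 stood at -2.78 to -2.68. Libraries with the same replicate number did not deviate together (correlations of -0.023 to 0.034, and 3 of 8 libraries closest to their own number). Pairing by number was thus not seen, though a weak shared effect could leave such values too. With the replicate block 17 of the 32 rose and 6 fell, and 8941 of all genes were called against 8880. Levels under 3 reads in a library, as for Derl3, could not be told from 0.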
